A study of Arabidopsis thaliana with 6 samples.

Results

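Transcript levels of genes of the circadian clock were examined in shoots of Arabidopsis plants kept for 4 d in salt. The genes were taken as a list of names: CCA1 (AT2G46830), LHY (AT1G01060), RVE1 (AT5G17300), ELF4 (AT2G40080) and GI (AT1G22770), each on condition that a probe set names that gene alone in the platform annotation or in the list of H2O2-responsive transcripts that accompanies the study. Of these 5 genes, 4 had such a probe set, out of 14276 genes named in all. The H2O2 list was read here only in part (1995 rows), and in that part and the annotation no probe set naming LHY alone was found, so LHY was not analysed here. GI was named by the platform annotation, whereas CCA1, RVE1 and ELF4 were named only through the H2O2 list, which was assembled from another experiment of the same study. Each of the 4 genes had 1 probe set.

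All plants were wild type Col-0, a single accession, grown in hydroponic culture under 8 h of light and 16 h of darkness, and the labels give an age of 28 days, which the methods give as the age when the salt treatment began. The salt group received 150 mM NaCl in the liquid medium for 4 d and the control group the same medium without NaCl. There were 3 salt and 3 control samples, described as independent biological replications, and the labels call the material the whole rosette. RNA of each sample was hybridized to 1 Affymetrix ATH1 array. NaCl was added during the light period. The hour of harvest is not given in the sources used here, and it is not stated to be the same for all arrays. Each group was sampled only at 4 d. A change in the level of a rhythmic transcript, a shift of its daily peak and a different hour of harvest therefore cannot be told apart. In whole rosettes, fewer cells of a type and less RNA per cell cannot be told apart either.

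The plant clock is a set of transcription factors and partner proteins that repress and activate each other in turn through the day. CCA1 and LHY, MYB-like factors whose transcripts peak around dawn, repress genes that are expressed towards dusk, among them ELF4 and GI. RVE1, of the same MYB-like family, also peaks around dawn and links the clock to auxin synthesis. ELF4 is a small protein of the evening complex, which it forms with ELF3 and LUX and which represses other clock genes at night. GI (GIGANTEA) stabilizes the F-box protein ZEITLUPE, acts in the photoperiodic control of flowering and is known to hold back the kinase SOS2 of the salt tolerance pathway when no salt is present. CCA1 and RVE1 are called morning genes below, and ELF4 and GI evening genes. No sequence of these genes is shown, because the tables used here hold none.

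The salt arrays were less alike than the control arrays. Over all probe sets, salt arrays correlated with each other at 0.98 to 0.988 and control arrays at 0.993 to 0.997, and salt replicate 1 was further from the controls (0.93 to 0.939) than salt replicates 2 and 3 (0.961 to 0.97). These correlations run over probe sets of the same arrays and carry no test. The 25S ribosomal RNA probe set had log2 signals of 10.24, 9.05 and 9.48 in salt replicates 1 to 3, against 7.16, 7.20 and 7.84 in control replicates 1 to 3. The 5S ribosomal RNA probe set went the other way on average, with 5.29, 5.04 and 6.71 in salt and 6.99, 6.60 and 5.90 in control. The 3′ probe set of actin exceeded its 5′ probe set by 3.36, 3.47 and 3.66 in salt and by 3.23, 3.11 and 3.23 in control, and that of GAPDH by 0.37, 0.29 and 0.07 in salt and by 0.44, 0.45 and 0.39 in control (log2, replicates 1 to 3). The rosette label was checked with marker lists. The 6 of 11 leaf markers that were measured had log2 values of 10.84 to 13.71 on all arrays, and their summed linear signal was 33054 to 47107 in salt, lowest in salt replicate 1, against 52763 to 55541 in control. Of 9 root markers 6 were measured, with a summed signal of 489 to 739 in salt and 764 to 928 in control. Over the 6 arrays PYK10 had log2 values of 8.02 to 9.42, and NRT2.1, EXPA7 and CASP1 had 5.59 to 6.23. Only the iron transporter gene IRT1 and the peroxidase gene PRX72 stayed under a log2 value of 5.45 on every array. That value is the 30th percentile of the mean signal of all probe sets that are not controls. SEP3, the only flower marker measured of 6, was also under that value on every array. Of the leaf markers 2 of 6 passed the test described below, both lower in salt, beside 12.3% of all genes that passed it and were lower. None of the 6 measured root markers passed. The part that these array differences have in the changes below was not tested, except by leaving out arrays.

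Of the 4 clock genes, only CCA1 passed the test. All 4 had higher means in salt than in control, by 1.03 for CCA1, 1.24 for RVE1, 1.04 for ELF4 and 0.15 for GI on the log2 scale. The test was limma across all 14276 genes with Benjamini-Hochberg adjustment, and the words rose and fell are kept for an adjusted p under 0.05. The count of 1 of 4 stands beside 11.4% of all genes that rose and 12.3% that fell (23.7% in either direction). Groups did not overlap for CCA1 and RVE1, that is 2 of 4 genes with all salt arrays above all control arrays, beside 18.9% of all genes, and 23.8% had all salt arrays below all control arrays. The mean difference was at least 2-fold for 3 of the 4 (CCA1, RVE1 and ELF4), beside 5.32% of all genes. This share was not taken for the genes named only through the H2O2 list, as these 3 were. Without salt replicate 1 all 3 were under 2-fold, with log2 differences of 0.82, 0.61 and 0.36. The median difference of the 4 genes was 1.04, and that of all genes was -0.03. The nearer background for CCA1, RVE1 and ELF4 is the 921 genes named only through the part of the H2O2 list read here, of which 36.9% rose and 44.1% had all salt arrays above all control arrays, with a median difference of 0.29. With 4 genes these shares are a description.

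**Figure D1:**
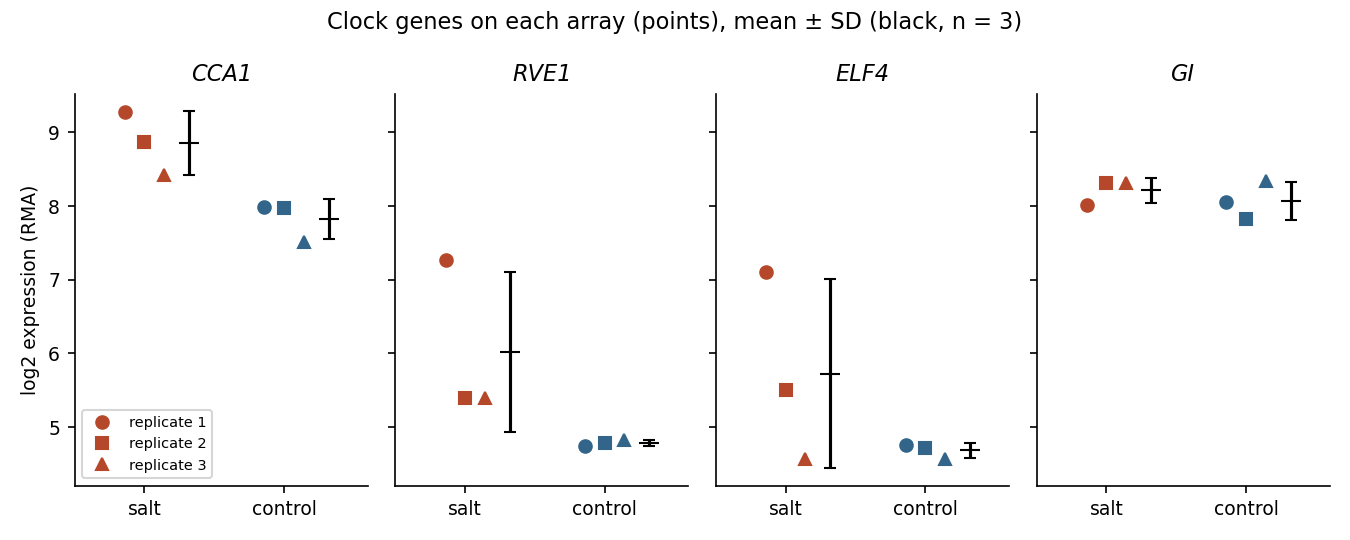
Log2 expression (vertical axis, RMA values) of CCA1, RVE1, ELF4 and GI on each of 3 salt arrays (left in each panel) and 3 control arrays (right), with replicate 1 as a circle, 2 as a square and 3 as a triangle, and mean ± SD in black (n = 3). All CCA1 and RVE1 values were higher in salt than in control, salt replicate 1 was far above the other salt arrays for RVE1 and ELF4, and the GI groups overlapped. Levels of different probe sets are not comparable with each other.

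CCA1, the dawn repressor, had log2 values of 9.28, 8.87 and 8.42 in salt replicates 1 to 3, against 7.99, 7.98 and 7.51 in control replicates 1 to 3. Every salt array was above every control array, and within both groups replicate 3 was the lowest. The salt mean was 8.86 ± 0.43 (SD, n = 3) and the control mean 7.83 ± 0.27 (SD, n = 3). CCA1 therefore rose by 1.03 (SE 0.23), which is 2.04-fold, with an adjusted p = 0.021 from limma and a 95% interval of 1.39- to 2.99-fold. An exact two-sided permutation test of its values gave p = 0.1, which is the smallest that 3 arrays against 3 allow. Relative to the control mean, CCA1 was 2.74-fold higher in salt replicate 1, 2.06-fold in salt replicate 2 and 1.51-fold in salt replicate 3. It ranked 733rd of 14276 genes by size of the rise.

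The call of CCA1 held in 10 of 13 other ways of fitting, with differences of 0.82 to 1.25 and adjusted p-values of 0.0092 to 0.066 from limma. It was lost when any 1 control array was left out, with an adjusted p of 0.060 without control replicate 1, 0.062 without control replicate 2 and 0.066 without control replicate 3, although the difference stayed between 0.87 and 1.11. Without salt replicate 1 the difference was 0.82 and still passed (adjusted p = 0.030 from limma). The spread of CCA1 among control arrays was large for this series, since 4.27% of genes had a larger control SD.

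RVE1, the other morning gene, had log2 values of 7.27, 5.40 and 5.39 in salt replicates 1 to 3, against 4.74, 4.78 and 4.82 in control replicates 1 to 3. The groups did not overlap. Salt replicates 2 and 3 were nearly equal and lay 0.62 and 0.61 above the control mean, whereas salt replicate 1 lay 2.49 above it. In linear terms this was 5.62-fold in salt replicate 1, 1.54-fold in salt replicate 2 and 1.53-fold in salt replicate 3. The mean was 6.02 ± 1.08 (SD, n = 3) in salt and 4.78 ± 0.04 (SD, n = 3) in control. The difference of 1.24 (SE 0.48) did not pass, with an adjusted p = 0.11 from limma, an unadjusted p of 0.036 and an interval of 1.08- to 5.16-fold, and the exact permutation test gave the smallest possible p of 0.1.

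The spread of RVE1 was large among salt arrays and small among control arrays. Of all genes 0.469% had a larger SD in salt, whereas 84.7% had a larger SD in control. Without salt replicate 1 the difference was 0.61 (SE 0.079) and passed, with an adjusted p of 0.0038. It also passed when arrays were weighted by their quality, with a difference of 1.0 and an adjusted p of 0.047. Over the 12 other fits that kept RVE1, the difference ranged from 0.61 to 1.56 and the adjusted p from 0.0038 to 0.24. The direction was the same in each.

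ELF4, of the evening complex, had log2 values of 7.10, 5.51 and 4.57 in salt replicates 1 to 3, against 4.76, 4.72 and 4.57 in control replicates 1 to 3. Salt replicate 3 was as low as the lowest control array, salt replicate 2 was above all controls, and salt replicate 1 was far above both. Relative to the control mean the salt arrays were at 5.34-, 1.77- and 0.924-fold. The salt mean was 5.73 ± 1.28 (SD, n = 3) and the control mean 4.68 ± 0.10 (SD, n = 3). The difference of 1.04 (SE 0.56, 0.819- to 5.19-fold) did not pass, with an adjusted p = 0.23 from limma and p = 0.4 in the exact permutation test.

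ELF4 was among the most uneven genes of the salt group. Only 0.259% of all genes had a larger SD among salt arrays, and the excess of salt replicate 1 over the mean of the other salt arrays was 2.06, which 0.098% of genes exceeded. For RVE1 this excess was 1.88, exceeded by 0.147% of genes, for CCA1 it was 0.64, exceeded by 4.19%, and for GI it was -0.30, which 86.1% exceeded. Without salt replicate 1 the ELF4 difference was 0.36 (adjusted p = 0.39 from limma), and without salt replicate 3 it was 1.62 and passed with an adjusted p of 0.046. The adjusted p ranged from 0.046 to 0.39 over 12 other fits. The mean signals of RVE1 (5.40) and ELF4 (5.21) over the 6 arrays were under the value of 5.45 given above, so that both were measured at the dim end of the array.

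GI had log2 values of 8.02, 8.32 and 8.31 in salt replicates 1 to 3, against 8.05, 7.82 and 8.34 in control replicates 1 to 3. The groups overlapped completely, since all salt values lay between the lowest and the highest control value. The mean was 8.22 ± 0.17 (SD, n = 3) in salt and 8.07 ± 0.26 (SD, n = 3) in control. The difference was 0.15 (SE 0.15), with a 95% interval of 0.861- to 1.42-fold, an adjusted p = 0.54 from limma and p = 0.7 in the exact permutation test. The test did not pass in any of the 13 other fits, in which the difference ranged from 0.02 without control replicate 2 to 0.28 without control replicate 3. The interval leaves room for a rise of up to 1.42-fold, so that a missing call does not show equal levels. As with CCA1, the spread of GI among control arrays was large, and 4.81% of genes had a larger one.

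**Figure D2:**
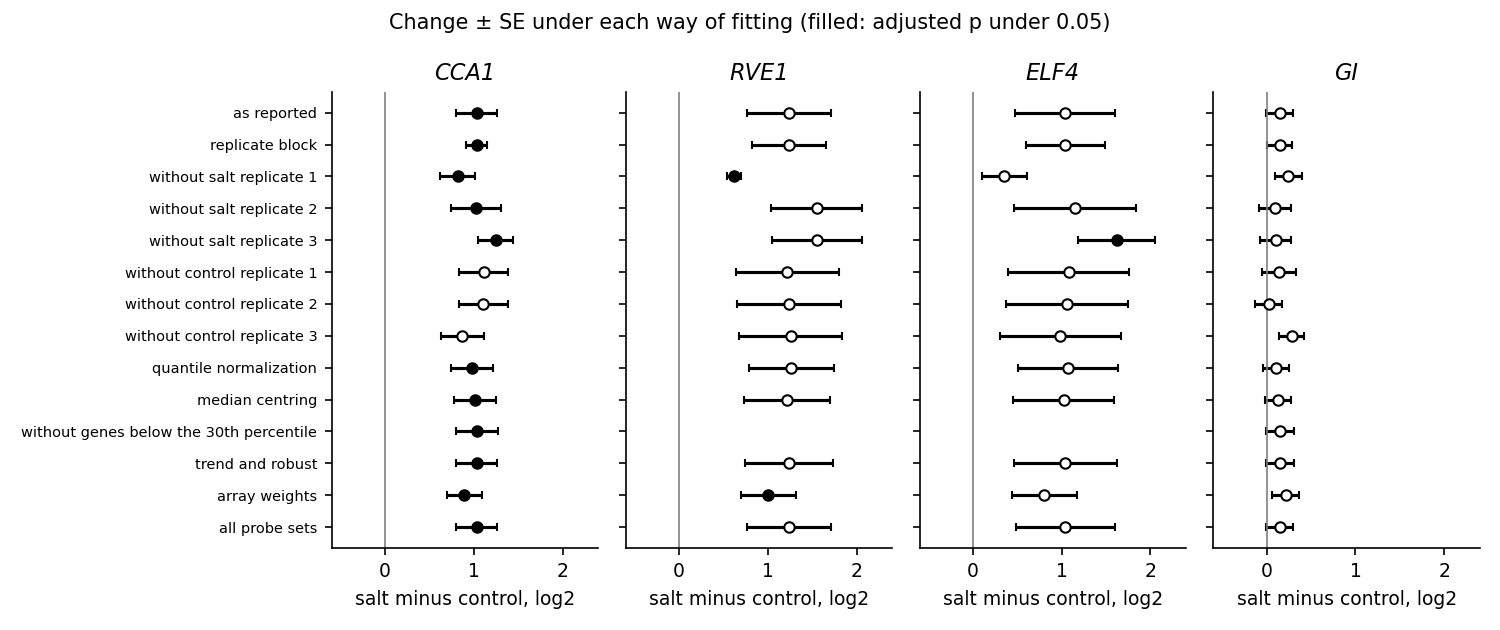
Difference between salt and control arrays (horizontal axis, log2, ± SE) for CCA1, RVE1, ELF4 and GI as reported (top row) and under 13 other fits, with filled points where the adjusted p from limma was under 0.05. CCA1 lost its call only without a control array, RVE1 gained one without salt replicate 1 and with array weights, ELF4 gained one without salt replicate 3, and GI had none. RVE1 and ELF4 have no point where dim genes were left out.

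Morning and evening genes were then set side by side on each array. In plants sampled through the day the peaks of these kinds of genes lie in opposite parts of the day. Among salt arrays CCA1, RVE1 and ELF4 were each highest in replicate 1, and the order of the 3 arrays was the same for the morning gene CCA1 and the evening gene ELF4. GI was lowest in salt replicate 1, at 0.05 below the control mean, and 0.25 and 0.24 above it in salt replicates 2 and 3. The 2 evening genes thus did not share an order across the salt arrays. The range of ELF4 among salt arrays was 2.53, whereas that of GI was 0.30, smaller than its range of 0.52 among control arrays.

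In the control group, the departures of CCA1 and GI from the group mean had opposite signs on every array. CCA1 was 0.16 and 0.15 above its mean in control replicates 1 and 2, where GI was 0.02 and 0.25 below its own. Control replicate 3 had the lowest CCA1 value of its group, 0.32 below the group mean, and the highest GI value, 0.27 above it. RVE1 and ELF4 hardly varied there, with ranges of 0.08 and 0.19 on the log2 scale, compared with 0.48 for CCA1 and 0.52 for GI. Both RVE1 and ELF4 were measured at the dim end of the array, so that their small ranges do not show steady transcript levels. The other listed morning genes did not share 1 order in the control group. LNK2, LNK3 and GBSS1 were lowest in control replicate 3 (9.38, 9.16 and 9.19). AT5G52660 was lowest in control replicate 2 (7.18, with 7.55 and 7.42 in control replicates 1 and 3). RVE1 was highest in control replicate 3 (4.82), but with a range of 0.08 in a dim gene this order carries no weight. With 3 arrays a group no relation within a group can be tested, and because salt and control arrays form separate groups no pooled correlation between genes is tested.

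The departures from the control mean were also compared between pairs of genes on the same array. That of CCA1 exceeded that of GI by 1.5, 0.79 and 0.35 in salt replicates 1 to 3, against 0.18, 0.40 and -0.59 in control replicates 1 to 3. These groups overlapped, since salt replicate 3 (0.35) was below control replicate 2 (0.40). CCA1 passed the test and GI did not, but whether their responses differ was not tested. The departure of RVE1 exceeded that of GI by 2.54, 0.37 and 0.37 in salt, against -0.02, 0.25 and -0.23 in control, with no overlap. For CCA1 against ELF4 the excess was -0.96, 0.22 and 0.71 in salt, with 0.09, 0.12 and -0.20 in control, and it had both signs in each group. The mean excess of CCA1 over ELF4 was -0.01 ± 0.86 (SD, n = 3) in salt. This mean hides opposite signs, and without salt replicate 1 the difference between groups was 0.82 for CCA1 and 0.36 for ELF4. None of these pair differences was tested, because the genes were chosen together.

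**Figure D3:**
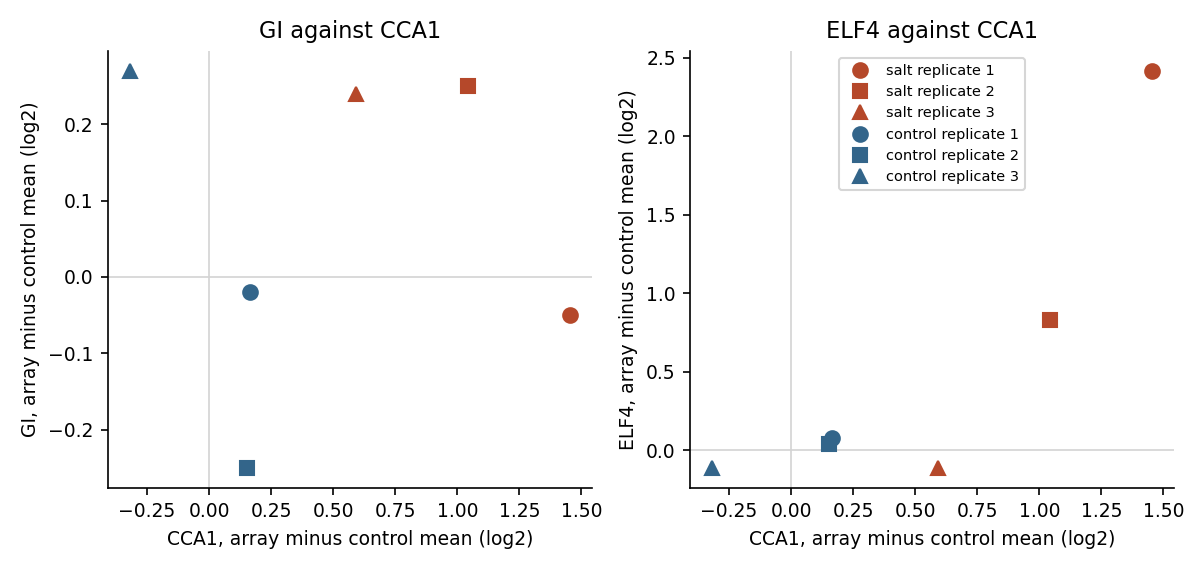
Each array's log2 value minus the mean of the control arrays, for GI (left, vertical axis) and ELF4 (right, vertical axis) against CCA1 (horizontal axis), with salt arrays in red, control arrays in blue and the replicate number as the symbol. Salt replicate 1 was highest for CCA1 and ELF4 (1.45 and 2.42 above the control mean) and near the control mean for GI, and control replicate 3 was lowest for CCA1 and highest for GI.

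The wider clock was examined with lists of 43 genes of the core clock, 22 genes that the clock is known to control and 12 genes of light input. Of these, 11, 7 and 1 were measured, so that these lists cannot speak for the clock as a whole. Of the 19 genes 9 were named only through the H2O2 list, in which rises were more frequent, as given above. Of the pseudo-response regulators, ELF3, LUX and the ZEITLUPE family none had a probe set named here. Of the 11 core genes 2 rose (CCA1 and AT4G01280) and none fell, beside the 11.4% of all genes that rose. An unadjusted p under 0.05 was reached by 4 of the 11, beside 36.8% of all genes, which is about the same share. The 11 core genes had a median difference of 0.42. Leaving out the 4 genes described above, the other 7 had a median of -0.02, near that of all genes. Of 7 output genes 3 rose (COR27, AT1G69570 and COL1) and none fell, with a median of 1.0, beside 11.4% of all genes and 36.9% of those named only through the H2O2 list, as 3 of the 7 were. The phytochrome gene PHYD, the only measured gene of light input, rose.

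COR27, a cold- and clock-regulated gene whose product represses evening clock genes, had log2 values of 6.84, 5.84 and 5.64 in salt replicates 1 to 3, against 4.30, 4.45 and 4.30 in control replicates 1 to 3. It rose by 1.76 (SE 0.29) with a limma adjusted p = 0.0078, and it passed in all 12 other fits that kept it. Its control values were dim, at the level of SEP3 (4.24 to 4.33 in control), so that the fold of its rise is uncertain. AT1G69570 rose by 1.06 (SE 0.27, adjusted p = 0.031) and COL1, of the CONSTANS-like family, by 0.74 (SE 0.12, adjusted p = 0.0064). PHYD, a red and far-red light receptor gene, rose by 0.59 (SE 0.15, adjusted p = 0.029). AT4G01280 rose by 0.47 (SE 0.13, adjusted p = 0.036), a call that held in 6 of 13 other fits (adjusted p of 0.0056 to 0.12) and was lost when any array other than salt replicate 3 was left out. AT1G69570 and PHYD did not pass when any 1 control array was left out, with adjusted p-values of up to 0.11 for AT1G69570 and 0.10 for PHYD, and COL1 passed in all 13.

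Among genes that did not pass, CDF2, a DOF repressor of the flowering gene CONSTANS, had 8.35, 7.35 and 6.47 in salt replicates 1 to 3, against 5.98, 6.10 and 6.13 in control replicates 1 to 3. Its difference of 1.32 had an adjusted p of 0.061 from limma, and its salt arrays did not overlap with the controls. AT4G33980 had a difference of 1.0 (adjusted p = 0.070) and AT5G52660 one of 0.48 (adjusted p = 0.064). The coactivator genes LNK2 and LNK3 stood at -0.23 and 0.42, with adjusted p-values of 0.20 and 0.17. GBSS1, for a starch synthase with a dawn peak, stood at -0.20, and TIC, XCT and FIO1, which are needed for normal clock period, at -0.02, -0.06 and -0.12. LNK2, LNK3, GBSS1, TIC, XCT, FIO1 and AT2G34140 (0.40, adjusted p = 0.075) were named after their values were seen.

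**Figure D4:**
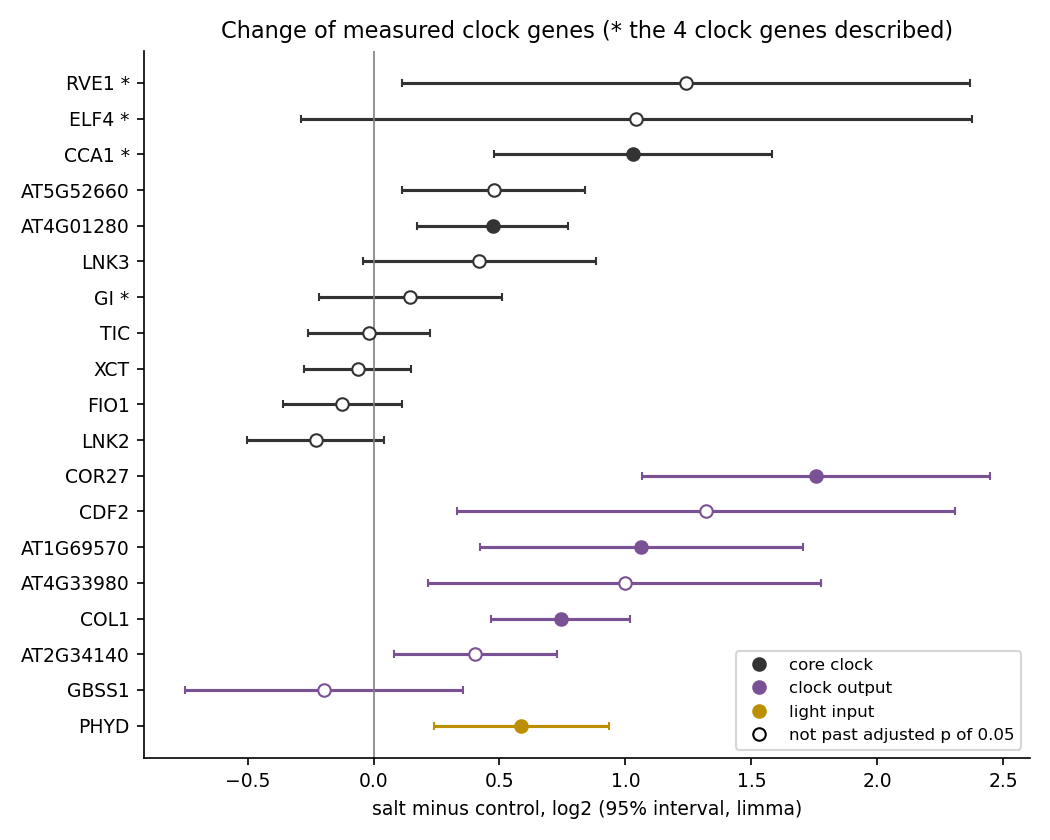
Difference between salt and control arrays (horizontal axis, log2, with 95% intervals from limma) for 19 measured genes of the core clock, clock output and light input, filled where the adjusted p was under 0.05. Of these genes 6 rose and none fell, and CCA1 was among the 6 whereas RVE1, ELF4 and GI were not. Of all genes 11.4% rose, and of those named only through the H2O2 list, as 9 of the 19 were, 36.9% rose.

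Most of the listed morning genes and the measured evening genes had higher means in salt. Of 16 genes listed as morning genes 6 were measured (CCA1, RVE1, AT5G52660, LNK2, LNK3 and GBSS1), with a median difference of 0.45. Of these 4 had a higher mean in salt, beside 6495 of all 14276 genes, and 1 rose, beside 11.4% of all genes. The H2O2 list alone named 5 of the 6, and of all genes named only through it 36.9% rose, with a median difference of 0.29. Of 11 evening genes only ELF4 and GI were measured, with a median of 0.60 and no call. Measured clock genes without a listed phase were in neither list, so that the medians hold for this assignment of phases only. Without salt replicate 1 the medians were 0.28 for the morning list and 0.30 for the evening list, and with dim genes left out the evening list held only GI (0.15). By array, the median departure of the morning list from the control mean was 0.79, 0.42 and 0.14 in salt replicates 1 to 3, and that of the evening list was 1.18, 0.54 and 0.06. Both lists were thus highest in salt replicate 1 and lowest in salt replicate 3, while GI within the evening list was not.

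Salt replicate 1 was the highest salt array for 13 of the 19 measured clock genes, beside 36.4% of all genes. Among all 2703 genes with salt arrays above all control arrays it was the highest in 60.9%. For 10 of the 19, salt replicate 1 was above 2 and 2 above 3, beside 19.9% of all genes and 31.6% of those 2703. Of the 4 clock genes CCA1, RVE1 and ELF4 had this order, by 0.01 between replicates 2 and 3 for RVE1. The 25S ribosomal RNA signal was also highest in salt replicate 1 but lower in replicate 2 than in replicate 3, whereas the 5S signal was highest in replicate 3. The summed leaf markers were lowest in replicate 1 and highest in replicate 2. Their part in this order was not tested, nor was that of the hour of harvest, which is not given for any array.

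**Figure D5:**
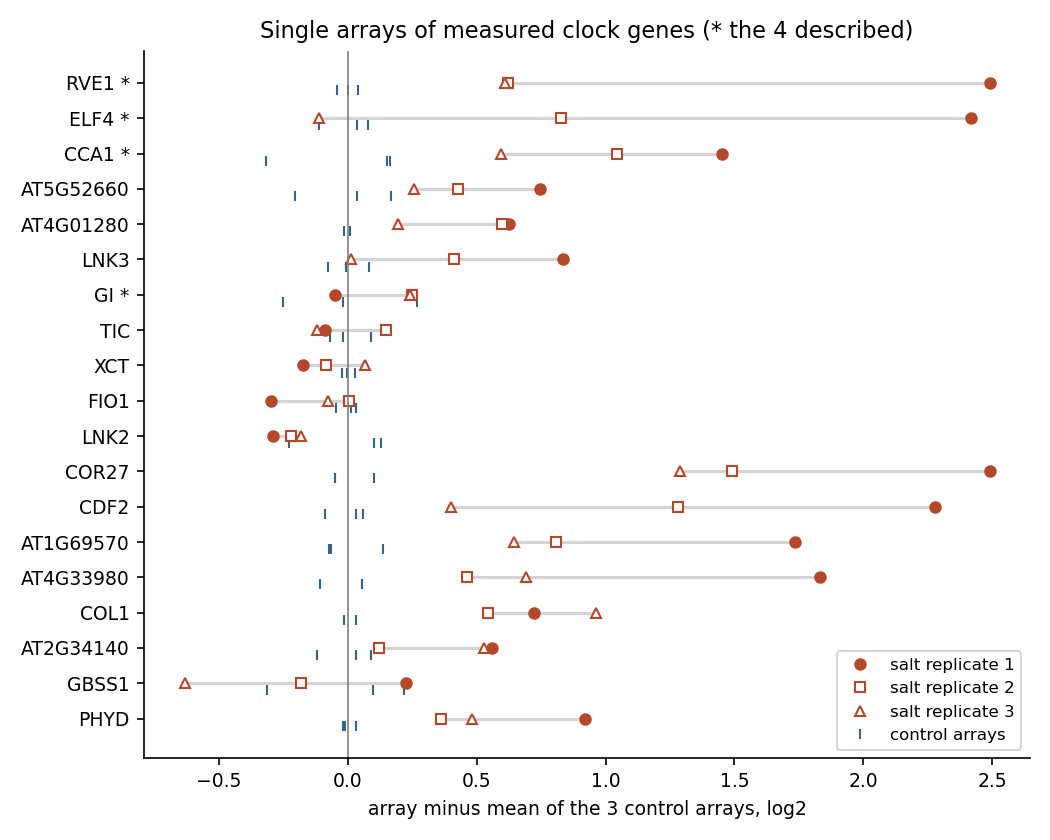
Each salt array's log2 value minus the mean of the 3 control arrays (horizontal axis) for 19 measured clock genes, with salt replicate 1 as a filled circle, 2 as an open square, 3 as an open triangle and single control arrays as blue ticks. Salt replicate 1 was the highest salt array for 13 of the 19 genes, and it stood furthest from the other salt arrays for ELF4 and RVE1.

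The genes whose values over the 6 arrays ran most like each clock gene were listed as a description, by Pearson correlation over the 6 arrays among 9495 genes with a mean of at least 5.45, the percentile value given above. The arrays are shared by all genes, so that any gene that differs between the groups or in salt replicate 1 can reach a high value. For CCA1 these were AT2G07751 (0.997), AT2G31240 (0.995) and SIGE (0.994), which encodes a sigma factor of the plastid RNA polymerase. SIGE had 9.56, 9.13 and 8.66 in salt replicates 1 to 3, against 8.19, 7.95 and 7.56 in control replicates 1 to 3, and rose by 1.22 (adjusted p = 0.016 from limma). For RVE1 they were AT1G53645 (0.998), AT1G17520 (0.997) and FAC1 (0.997), an AMP deaminase gene, with differences of 0.23 to 0.24, and for ELF4 the ABA receptor gene PYL7 (0.996), AT4G33905 (0.995) and NUP1 (0.994), with differences of 0.25 to 0.47. None of these 6 genes passed the test. For GI they were RLP54 (0.986), AT3G52610 (0.981) and HAT3.1 (0.977), with differences of at most 0.12.

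Among the clock genes themselves, RVE1 and ELF4 were the most alike of the 4, with a correlation of 0.943 over the 6 arrays, and 1.76% of all genes were more like ELF4 than RVE1 was. CCA1 had 0.859 with RVE1 and 0.853 with ELF4. GI had -0.03 with CCA1, -0.08 with RVE1 and -0.20 with ELF4, so that GI ran unlike the other 3 over these arrays. Of all 19 clock genes, the most like CCA1 was COR27 (0.956), the most like ELF4 was LNK3 (0.985) and the most like RVE1 was AT4G33980 (0.985). With 6 arrays, 1.22% of all genes were more like CCA1 than COR27 was, 0.168% more like ELF4 than LNK3 was and 0.322% more like RVE1 than AT4G33980 was. Both RVE1 and AT4G33980 were dim and highest in salt replicate 1.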

How the data were processed

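Shoot RNA of 3 salt and 3 control samples was hybridized to ATH1 arrays. The authors summarized probe intensities by RMA, so that the deposited table gives a log2 value for each probe set and array. GCRMA is also listed in the submitters' processing notes, and tool versions are not given in the sources used here. Of 22746 probe sets that are not controls, the platform annotation gave a single gene to 13513 and several to 503, which were not named, 921 were named only through the study's H2O2 list (read in part) and 7809 had no gene. Symbols came from a reference gene table (TAIR10.1, names only), and genes it does not name keep their locus. With several probe sets for a gene, that with the highest mean was used.

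Salt and control were compared with limma 3.58.1 (lmFit, eBayes, R 4.3.3) without pairing, with Benjamini-Hochberg adjustment over 14276 genes at 0.05, in a step tested on simulated data. The fit was repeated with the replicate number as a block, leaving out 1 array at a time, after median centring or quantile normalization, with a filter at the 30th percentile of the mean signal of probe sets, with trend and robust estimation, with array weights and over all probe sets. The clock genes, lists and alternatives were chosen with earlier results of these data known. Named were the 4 genes, list members that passed, the 5 largest that did not and, for each gene, the 3 most alike in pattern. Arrays carry no counts, so that the number of arrays limits the precision. Tables were made with Python 3.11.15 and pandas 2.3.3.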

Additional observations from a re-analysis of the deposited data

How the results depend on the processing

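Of the 4 clock genes none changed direction in any of the 13 other fits. With 1 array left out, the difference ranged from 0.82 to 1.25 for CCA1, 0.61 to 1.56 for RVE1, 0.36 to 1.62 for ELF4 and 0.02 to 0.28 for GI. Array weights gave RVE1 a call (1.0). Core clock genes that rose numbered 0 to 5 with 1 array left out (0 when any 1 control array was left out, 1 without salt replicate 2, 5 without salt replicate 3) and 1 after quantile normalization, compared with 2. Over all genes, 837 to 1701 rose and 492 to 1891 fell with 1 array left out, with 837 and 500 without control replicate 1, 845 and 492 without control replicate 2, and 1194 and 917 without control replicate 3. Counted over all probe sets, 2645 rose and 3145 fell. With the replicate number as a block, 1398 genes rose and 1345 fell, 1 core clock gene rose (CCA1, adjusted p = 0.0092 from limma), and AT4G01280 lost its call (adjusted p = 0.058). Same-numbered arrays deviated from their group means with correlations of -0.12, 0.05 and -0.14 across genes, and other-numbered arrays with -0.10 to 0.16. The numbers were therefore not treated as pairs. This check runs over all genes and cannot settle pairing for a single gene such as CCA1, whose SE was 0.12 with the block and 0.23 without. RVE1 and ELF4 gave no value with dim genes left out, since both are below that filter.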
